A study of Mus musculus with 6 samples.

Results

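HOX genes encode the homeodomain transcription factors that lie in the A, B, C and D clusters of the mouse genome, and their transcripts were followed in back skin before and after wounding. Members were all genes with exactly 1 symbol in the array annotation that had the form of a HOX name with a cluster letter and a number, read from the brightest probe set of each gene. This gave 37 HOX genes among 19938 genes in all, 10 in cluster A on chromosome 6, 9 in cluster B on chromosome 11, 9 in cluster C on chromosome 15 and 9 in cluster D on chromosome 2. Each of the 37 members had 1 probe set.

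The RNA was total RNA of back skin. Donors were BALB/c males 5 to 6 weeks old, from an inbred strain with white fur. The groups were wounds at day 1 (2 arrays), wounds at day 4 (2 arrays) and intact skin (2 arrays). Wounds of 4 mm were punched on both sides of the shaved back through skin and subcutaneous tissue, with the fascia left in place. A biopsy of 8 mm then took the wound and the skin around it. By the punch sizes the wound as made equals 25% of the biopsy area, and its size at biopsy is not given. The labels do not say whether an array holds 1 animal or a pool.

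HOX proteins give cells their position along the body axis. Genes at one end of a cluster (low numbers) are switched on early and towards the head, and genes at the other end (high numbers) later and towards the tail. Dermal fibroblasts of the adult keep such a combination, which reflects the site of the body they come from. Hoxc13 has a further role in the hair follicle, where it drives hair keratin genes. HOX proteins bind DNA together with cofactors of the PBX and MEIS families, and Polycomb and trithorax complexes hold the clusters in their silent or active state.

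The clusters also hold miRNA genes, shown here because 2 of those in cluster B were called lower, Mir196a-1 on both days and Mir10a at day 4 alone, with both signals below the receptor background (values below). Sequences are from RefSeq (GRCm38.p6), written 5′ to 3′, with the seed (bases 2 to 8) in capitals. The miR-10 pair lies at chr11:96317186-96317208 on the plus strand (Mir10a, cluster B) and chr2:74726074-74726096 on the plus strand (Mir10b, cluster D). The miR-196a sequence is encoded at chr11:96265187-96265208 on the plus strand (Mir196a-1, cluster B) and again at chr15:102973365-102973386 on the plus strand (Mir196a-2, cluster C), and miR-196b at chr6:52230129-52230150 on the minus strand (cluster A).
mmu-miR-10a-5p: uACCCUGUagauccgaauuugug
mmu-miR-10b-5p: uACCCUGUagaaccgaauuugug
mmu-miR-196a-5p: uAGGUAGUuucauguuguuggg
mmu-miR-196b-5p: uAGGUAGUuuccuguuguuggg
Both members of each pair share their seed. They differ outside it at 1 base, U12A of miR-10a against miR-10b and A12C of miR-196a against miR-196b, counted from the 5′ end with the base of the first-named miRNA first.

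The promoters of Hoxb4, which fell in wounds, and Hoxd10, the member that rose, are shown as the 250 bases before the RefSeq start, with each CG dinucleotide in capitals (GRCm38.p6, chr11:96318017-96318266 and chr2:74691641-74691890, both plus strand).
Hoxb4: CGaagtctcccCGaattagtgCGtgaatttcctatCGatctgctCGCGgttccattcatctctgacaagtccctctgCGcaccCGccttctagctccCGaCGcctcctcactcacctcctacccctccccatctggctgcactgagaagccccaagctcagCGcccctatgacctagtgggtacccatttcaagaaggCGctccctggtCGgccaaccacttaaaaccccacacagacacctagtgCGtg
Hoxd10: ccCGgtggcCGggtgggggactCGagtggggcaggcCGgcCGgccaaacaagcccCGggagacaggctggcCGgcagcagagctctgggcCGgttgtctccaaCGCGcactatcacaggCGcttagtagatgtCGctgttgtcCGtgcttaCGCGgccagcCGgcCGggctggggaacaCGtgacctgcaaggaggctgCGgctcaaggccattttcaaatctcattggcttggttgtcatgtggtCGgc
The Hoxb4 stretch holds 14 CG dinucleotides and the Hoxd10 stretch 20. Windows that begin at the same base and reach 50 bases past the start were given for 21 of the 37 members, and these 23 windows had a median of 15 CG dinucleotides, against 7 over all 32851 windows of the same length. Densely spaced CG dinucleotides are typical of promoters under Polycomb control. The count describes the sequence and was not related to the changes in wounds.

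Across the series, signals were alike between arrays, with medians of 6.89 to 6.93 and lower quartiles of 5.29 to 5.37 on the log2 scale. Replicate arrays correlated across genes with r of 0.989 at day 1, 0.986 at day 4 and 0.997 in intact skin. Probe sets of 1190 olfactory and vomeronasal receptor genes, which have little known transcription in skin, marked the background, and their 95th percentile lay between 5.97 and 6.07 on the 6 arrays. Skin identity was plain from keratinocyte and fibroblast genes, with intact values of 12.6 and 12.67 for the basal keratin Krt5 and 11.5 and 11.78 for the collagen Col1a1. Markers of infiltrating cells increased, and 8 of 8 measured neutrophil markers and 12 of 12 macrophage markers rose on both days. Fewer cells of a type and less RNA per cell cannot be told apart in such whole biopsies.

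In intact skin, 26 of the 37 HOX genes lay above the receptor background on both arrays. By position along the cluster these were 5 of 7 anterior members (paralog groups 1 to 3), 13 of 14 central members (groups 4 to 8) and 8 of 16 posterior members (groups 9 to 13). By cluster they were 7 of 10 in A, 8 of 9 in B, 5 of 9 in C and 6 of 9 in D. Probe sets differ in their affinity, so the order of signals between genes is not an order of RNA amounts, and these shares are descriptions of signal with no test.

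The central members formed the most evenly detected stretch. Of these 14 genes, 12 had intact signals between the array median and the upper quartile, and Hoxc8, known for patterning the lower thorax, was above the upper quartile with 9.41 and 9.27. Hoxc4 alone among the central genes was not above background on both arrays, with 6.09 and 5.8. The central genes of cluster A (Hoxa4 to Hoxa7) ranged from 7.43 to 8.06, those of cluster B (Hoxb4 to Hoxb7) from 7.5 to 7.86 and those of cluster D (Hoxd4 and Hoxd8) from 7.11 to 7.5. Hoxa5, a patterning gene of the lower neck and upper chest, gave the strongest signal in cluster A (7.99 and 8.06), and Hoxd8 the strongest in cluster D (7.48 and 7.5).

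Anterior genes differed by cluster. Hoxb1, Hoxb2 and Hoxb3, best known from the embryonic hindbrain, ranged from 7.37 to 8.74 in intact skin. Hoxb3 was the strongest signal of cluster B with 8.47 and 8.74. The anterior pairs of the other clusters were dimmer, with 5.69 to 6.28 for Hoxa2 and Hoxa3 and 5.45 to 6.25 for Hoxd1 and Hoxd3, and Hoxa2 and Hoxd1 did not pass the background on either intact array.

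Of the posterior genes, 10 lay between the lower quartile and the median of the array and 3 below the lower quartile (Hoxa11, Hoxc11 and Hoxd12). The 8 that were not above background on both intact arrays were Hoxa11, Hoxa13, Hoxb13, Hoxc10, Hoxc11, Hoxc12, Hoxd12 and Hoxd13, most of them known from limb, tail and genital patterning. Hoxc13 was the exception at this end, with 10.28 and 10.26 the brightest HOX probe set on both intact arrays. Hoxb9, Hoxa9 and Hoxd9 stood between, at 7.11 and 7.06, 6.83 and 6.78, and 6.23 and 6.63. The 2 intact arrays differed by at most 0.41 for any member.

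**Figure D1:**
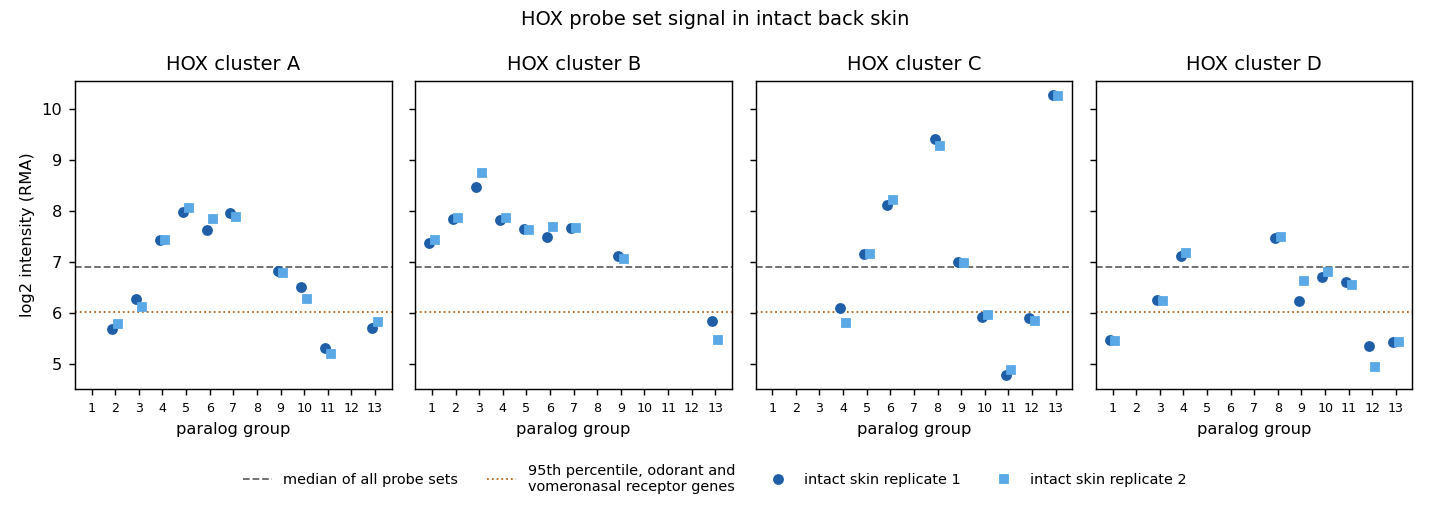
Log2 intensity of the 37 HOX probe sets on the 2 intact skin arrays (points, 1 per array), arranged by cluster and paralog group, with the array median and the 95th percentile of the receptor genes as lines. Most central genes (groups 4 to 8) sit above the median line and 8 of 16 posterior genes do not clear the receptor line on both arrays, while Hoxc13 stands at 10.28 and 10.26; heights are not comparable between genes as amounts of RNA.

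Both wound groups were compared with the same 2 intact arrays, so the day 1 and day 4 changes share their reference. At day 1, 10 HOX genes fell and 1 rose, and 26 did not pass the limma test at an adjusted p of 0.05. Among all genes 29.3% were called at day 1, 14.6% lower and 14.7% higher. At day 4, 11 HOX genes fell and 1 rose, and 25 did not pass, where 26.9% of all genes were called, 12.1% lower and 14.8% higher. The median change over the HOX genes was −0.16 at day 1 and −0.135 at day 4 on the log2 scale, against −0.04 and −0.03 over all genes. HOX genes with a fall on both days numbered 9, Hoxd10 rose on both days, Hoxc10 was called at day 1 alone, and Hoxb1 and Hoxc12 were called at day 4 alone. For 19 members at each day both wound arrays lay below both intact arrays, a pattern that 38.2% of all genes showed at day 1 and 36% at day 4. The opposite pattern was seen in 2 members at day 1 (Hoxd9 and Hoxd10) and 1 at day 4 (Hoxd10), against 29% and 30% of all genes. Leaving out 1 array could lower the counts, to 6 calls at day 1 without the first intact array, and at day 4 to 3 without the first and 4 without the second intact array and 5 without the second day 4 array.

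**Figure D2:**
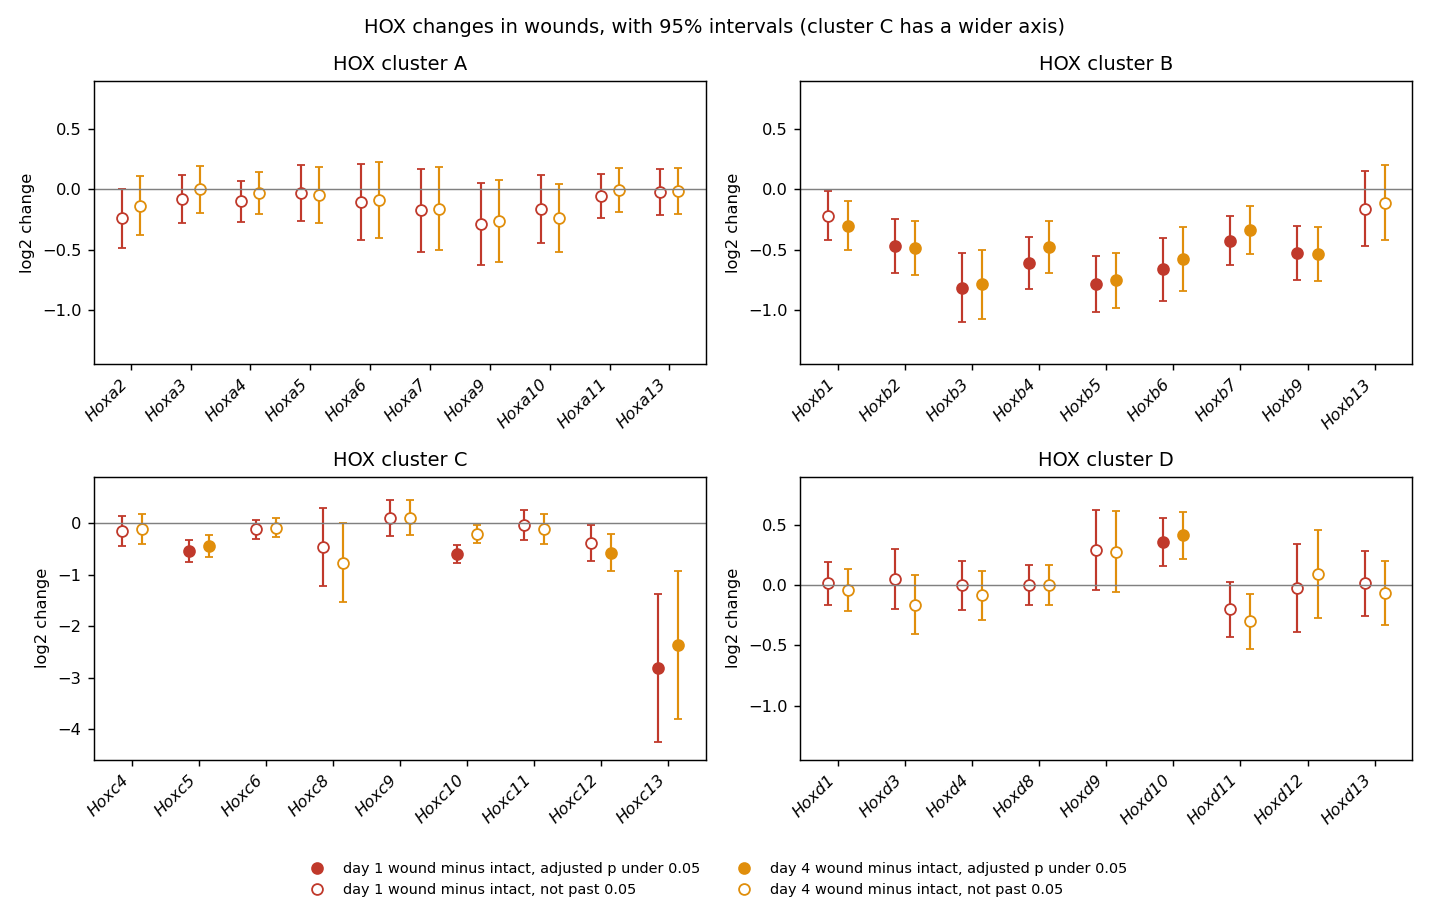
Log2 change of each HOX gene at day 1 and at day 4 against intact skin, by cluster and paralog group, with 95% confidence intervals from limma. The members of cluster B from Hoxb2 to Hoxb9 lie below 0 on both days, those of cluster A stay within −0.29 to 0, and Hoxd10 lies above 0 with 0.36 and 0.42.

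Cluster B carried most of the falls. At day 1, 7 of its 9 measured members fell, and at day 4 this was 8 of 9, with median changes of −0.53 and −0.49. Of all genes 14.6% were called lower at day 1 and 12.1% at day 4. The 7 measured members from Hoxb2 to Hoxb9, which lie next to each other along the chromosome together with Hoxb8, fell on both days by 1.26-fold to 1.76-fold. The members at both ends of the cluster, Hoxb1 and Hoxb13, were the 2 that did not pass at day 1. Without the first intact array 4 of the 9 members fell at day 1, and 3 of 9 fell at day 4 without either intact array or without the second day 4 array.

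Hoxb3 measured 7.89 and 7.69 on the day 1 arrays and 7.78 and 7.85 on the day 4 arrays, against 8.47 and 8.74 on the intact arrays. Both wound groups lay wholly below intact skin. The fall was 1.76-fold at day 1 (log2 −0.82, SE 0.12, limma adjusted p = 0.00346) and 1.73-fold at day 4 (log2 −0.79, SE 0.12, limma adjusted p = 0.00477).

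Hoxb5, which acts in the migrating neural crest of the gut, measured 6.94 and 6.77 at day 1 and 6.8 and 6.97 at day 4, against 7.65 and 7.63 in intact skin. This gap exceeded the largest spread between replicates of the gene, with a fall of 1.72-fold at day 1 (log2 −0.79, SE 0.10, limma adjusted p = 0.00182) and 1.69-fold at day 4 (log2 −0.76, SE 0.10, limma adjusted p = 0.00275). Hoxb3 and Hoxb5 passed the limma test on both days with any 1 of the 6 arrays left out.

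Hoxb6, a gene of trunk mesoderm, measured 7.05 and 6.81 at day 1 and 7 and 7.03 at day 4, against 7.5 and 7.69 in intact skin. Its fall was 1.59-fold at day 1 (log2 −0.67, SE 0.11, limma adjusted p = 0.00567) and 1.5-fold at day 4 (log2 −0.58, SE 0.11, limma adjusted p = 0.0114). Hoxb4, known for promoting the self-renewal of blood stem cells, measured 7.13 and 7.33 at day 1 and 7.39 and 7.33 at day 4, against 7.82 and 7.86 in intact skin. All wound arrays were again below both intact arrays, by 1.53-fold on average at day 1 (log2 −0.61, SE 0.09, limma adjusted p = 0.00375) and by 1.40-fold at day 4 (log2 −0.48, SE 0.09, limma adjusted p = 0.0112). Both genes held at day 1 with any 1 array left out. At day 4 neither passed without the second day 4 array or the second intact array, nor Hoxb4 without the first intact array, with adjusted p up to 0.0721 by limma.

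Hoxb9, which takes part in patterning the rib cage, measured 6.66 and 6.45 at day 1 and 6.52 and 6.58 at day 4, against 7.11 and 7.06 in intact skin. The change was −0.53 (SE 0.09, limma adjusted p = 0.00707) at day 1 and −0.54 (SE 0.09, limma adjusted p = 0.00826) at day 4 on the log2 scale. Hoxb2 measured 7.28 and 7.5 at day 1 and 7.36 and 7.39 at day 4, against 7.85 and 7.87 in intact skin, with log2 changes of −0.47 (limma adjusted p = 0.0109) and −0.49 (limma adjusted p = 0.0117). The groups did not overlap for either gene. Hoxb9 missed the threshold on both days without the first intact array (limma adjusted p = 0.0546 and 0.0633). Hoxb2 missed it on both days without either intact array and at day 4 without the second day 4 array (limma adjusted p up to 0.069).

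Hoxb7 had the smallest of these falls. It measured 7.31 and 7.18 at day 1 and 7.39 and 7.28 at day 4, against 7.67 on both intact arrays. The log2 change was −0.43 (SE 0.08, limma adjusted p = 0.0107) at day 1 and −0.34 (SE 0.08, limma adjusted p = 0.0283) at day 4. Without either intact array, or the second array of the day in question, it did not pass (limma adjusted p up to 0.125). Hoxb1, the most anterior member, measured 7.26 and 7.11 at day 1 and 7.07 and 7.14 at day 4, against 7.37 and 7.44 in intact skin. It was lower on all wound arrays, but passed at day 4 alone (log2 −0.30, limma adjusted p = 0.0425) and not at day 1 (log2 −0.22, limma adjusted p = 0.101). The day 4 call was lost without any 1 of the day 4 or intact arrays (limma adjusted p up to 0.173). Hoxb13, at the far posterior end, overlapped between the groups, with 5.43 and 5.56 at day 1 and 5.58 and 5.51 at day 4, against 5.84 and 5.47 in intact skin, and all these values lay below the receptor background.

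The fall of cluster B was of like size on every wound array. Its median departure from the intact mean was −0.55 and −0.51 on the day 1 arrays and −0.50 and −0.51 on the day 4 arrays. The same measure was −0.10, −0.11, −0.17 and −0.02 for cluster A, and −0.01, 0.02, 0.01 and −0.04 for cluster D, in the same array order. For cluster C without Hoxc13 it was −0.1925, −0.295, −0.205 and −0.2025, also below the intact mean on every wound array. Differences between clusters were not tested. Neutrophil markers rose on both days. Their summed signal, the log2 of the sum of linear intensities, was 14 and 14.4 at day 1 and 12.94 and 13.23 at day 4. In intact skin it was 9.61 and 9.91, and 3 of the 8 measured were below background on both intact arrays. Bright members weigh most in each summed signal. Among all genes 14.7% were called higher and 14.6% lower at day 1, and 14.8% and 12.1% at day 4. Fibroblast markers rose for 7 of 12 at day 1 and 8 of 12 at day 4 and fell for 1 on each day. Their summed signals were 14.33 and 14.68 at day 1 and 14.75 and 14.81 at day 4, against 14.06 and 14.15 in intact skin. Over the alternative fits 3 to 7 fibroblast markers rose at day 1 and 5 to 11 at day 4. Skeletal muscle markers rose for 11 of 13 at day 1 and 8 of 13 at day 4 (9 to 12 and 2 to 11 over the alternative fits), with summed signals of 14.91 and 14.95 at day 1 and 14.47 and 14.71 at day 4, against 14.19 and 14.18. Endothelial markers rose for 8 of 10 and 9 of 10 (6 to 9 and 2 to 9), with summed signals of 12.09 and 12.22 at day 1 and 11.88 and 12.15 at day 4, against 11.32 and 11.45. Melanocyte markers fell for 7 of 8 and 4 of 8 (3 to 7 and 0 to 6), with summed signals of 10.5 and 10.28 at day 1 and 10.8 and 10.76 at day 4, against 12.34 and 11.56. Hair genes fell as well and are given with Hoxc13. The part of these shifts in the HOX values was not tested.

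**Figure D3:**
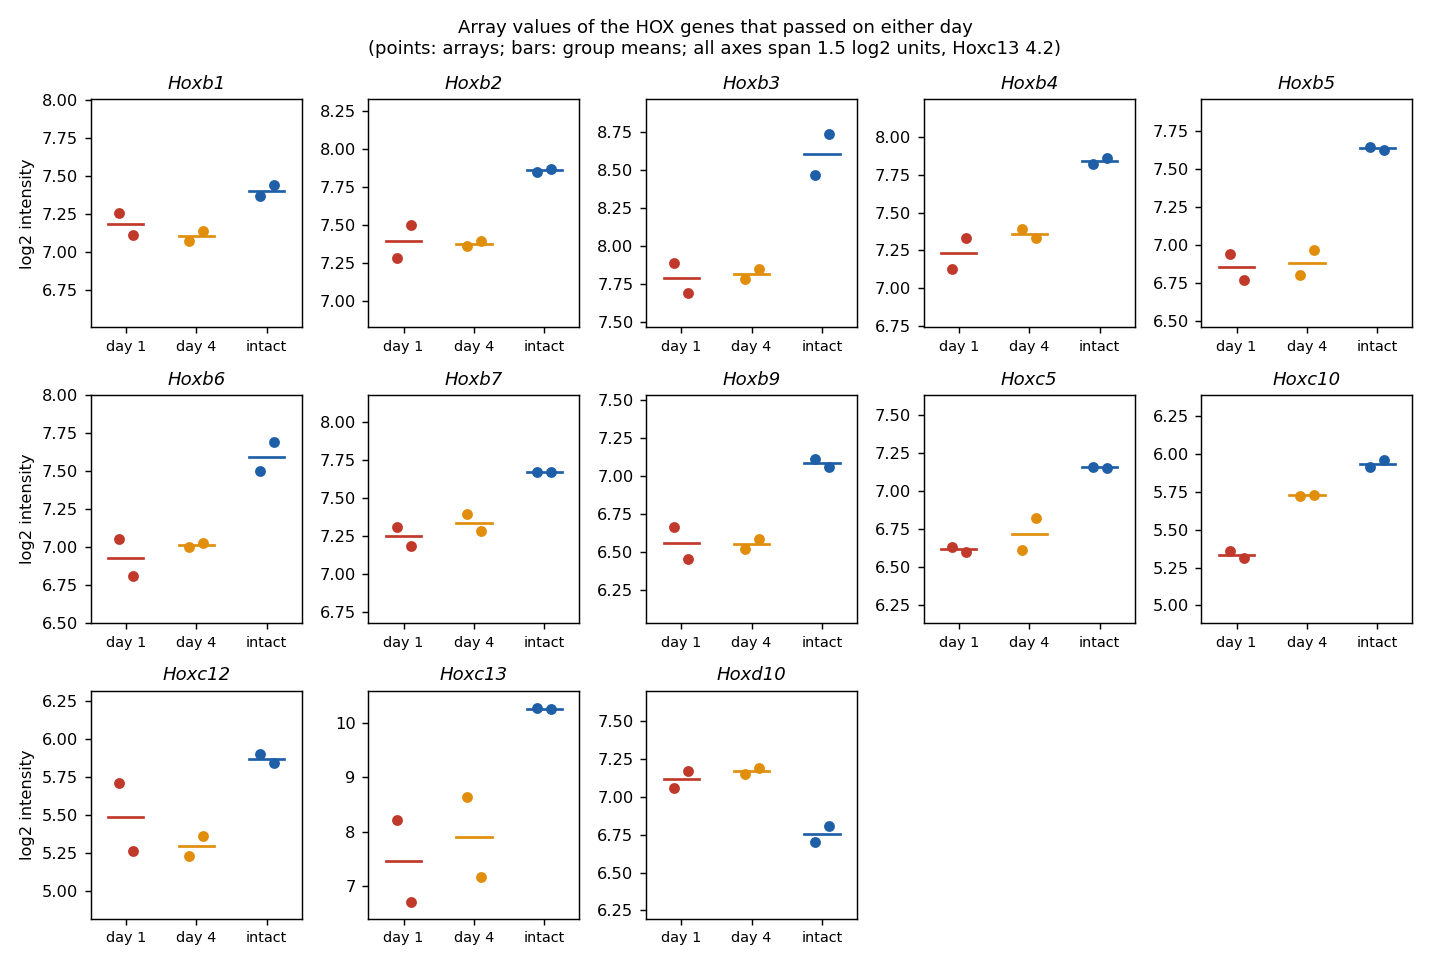
Log2 intensity on every array (points) for the HOX genes called at either day, with day 1 wounds, day 4 wounds and intact skin from left to right in each panel and the group mean as a bar. The wound arrays lie below the intact arrays in every panel but that of Hoxd10, where they lie above them, and the day 1 and day 4 arrays of Hoxc13 are split by 1.51 and 1.48.

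In cluster C, 3 of 9 members fell on each day, where 14.6% of all genes were called lower at day 1 and 12.1% at day 4. Hoxc13 had the largest change of any HOX gene. It measured 8.21 and 6.7 at day 1 and 8.64 and 7.16 at day 4, against 10.28 and 10.26 in intact skin. Both wound groups lay far below intact skin, but the 2 arrays within each wound group differed widely (SD 1.07 at day 1 and 1.05 at day 4, against 0.01 in intact skin, n = 2 each). The fall was 7.04-fold at day 1 (log2 −2.82, 95% interval −4.25 to −1.38, limma adjusted p = 0.0144) and 5.17-fold at day 4 (log2 −2.37, 95% interval −3.80 to −0.94, limma adjusted p = 0.0295). Without either intact array, or without the second array of the wound day, Hoxc13 no longer passed (limma adjusted p up to 0.0841 at day 1 and 0.136 at day 4).

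The median of the hair genes moved with Hoxc13 array by array. Of 25 measured genes of the hair shaft, inner root sheath and hair matrix, 18 fell at day 1 and 11 at day 4, and none rose, with median changes of −4.04 and −3.20 (8 to 23 falls at day 1 and 8 to 21 at day 4 over the alternative fits). Over all genes the share called lower was 14.6% at day 1 and 12.1% at day 4. The median departure of the hair genes from intact skin was −2.74 and −4.86 on the day 1 arrays and −1.73 and −4.77 on the day 4 arrays. Hoxc13 departed by −2.06 and −3.57 and by −1.63 and −3.11 on the same arrays, so the same array of each pair was the lower one for both. Among single hair genes, Krt74 at day 1 (5.05 and 5.29) and Gata3 at day 4 (10.77 and 10.86) went the other way. The summed hair signal was 13.93 and 12.01 at day 1 and 15.2 and 12.16 at day 4, against 16.46 and 16.49 in intact skin, with all 25 genes above background there. Foxn1, the transcription factor downstream of Hoxc13 whose loss gives nude mice, fell by 6.39-fold at day 1 (limma adjusted p = 0.000891) and by 5.68-fold at day 4 (limma adjusted p = 0.00154). How far a smaller share of follicle in the biopsy accounts for the Hoxc13 values was not tested.

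**Figure D4:**
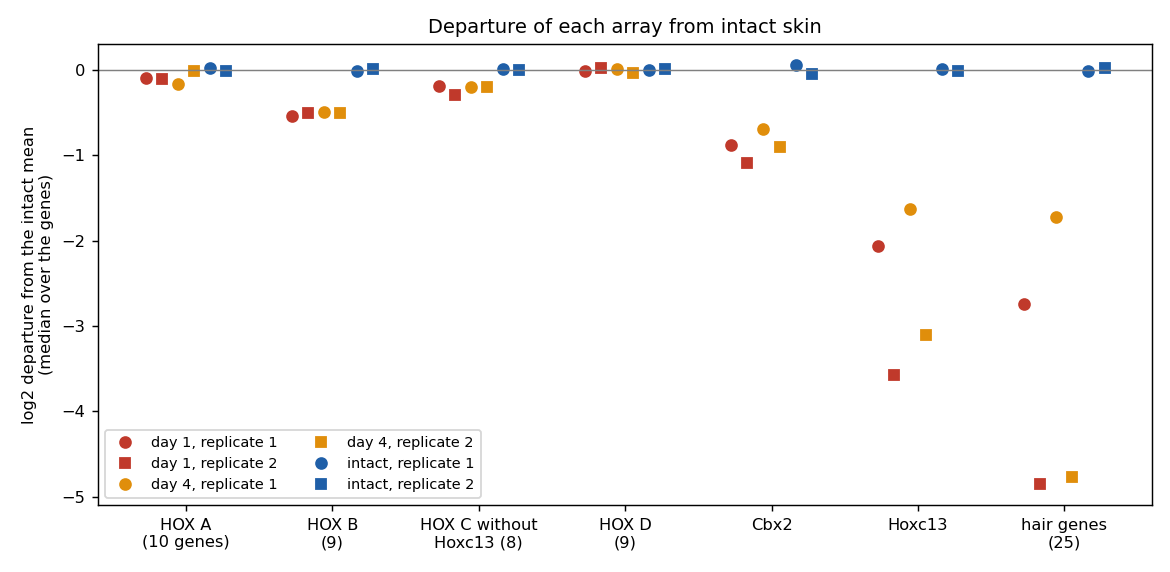
Departure of each array from the intact mean (log2) for the HOX clusters, Cbx2, Hoxc13 and the hair list, as medians over members, with colours for the groups and circles and squares for replicates 1 and 2. Cluster B stays between −0.55 and −0.50 on the 4 wound arrays, while Hoxc13 varies between −3.57 and −1.63 and the hair list between −4.86 and −1.73.

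Hoxc5, a central gene, measured 6.63 and 6.6 at day 1 and 6.61 and 6.82 at day 4, against 7.16 and 7.15 in intact skin. It fell by 1.45-fold at day 1 (log2 −0.54, SE 0.09, limma adjusted p = 0.00596) and by 1.36-fold at day 4 (log2 −0.44, SE 0.09, limma adjusted p = 0.0151), with no overlap between wound and intact arrays. The day 4 call was lost without either intact array (limma adjusted p up to 0.0876). Its neighbours Hoxc4 and Hoxc6 did not pass on either day. Hoxc6 measured 8.02 and 8.06 at day 1 and 8.03 and 8.11 at day 4, against 8.11 and 8.21 in intact skin. Both day 1 arrays were below both intact arrays, with 95% intervals of −0.31 to 0.07 at day 1 and −0.28 to 0.10 at day 4 for the log2 change.

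Hoxc10, known from the hindlimb and lumbar cord, differed more between the wound days than from array to array. It measured 5.36 and 5.31 at day 1 and 5.72 and 5.73 at day 4, against 5.91 and 5.96 in intact skin. It fell by 1.52-fold at day 1 (log2 −0.60, SE 0.07, limma adjusted p = 0.00162), and the day 4 change of −0.21 did not pass (SE 0.07, limma adjusted p = 0.0732). Hoxc12, the neighbour of Hoxc13, measured 5.71 and 5.26 at day 1 and 5.23 and 5.36 at day 4, against 5.9 and 5.84. It fell at day 4 (log2 −0.58, SE 0.15, limma adjusted p = 0.0323) and did not pass at day 1 (log2 −0.39, SE 0.15, limma adjusted p = 0.102). The day 4 call was lost without any 1 of the day 4 or intact arrays (limma adjusted p up to 0.154), and at day 1 it passed without the first day 1 array (limma adjusted p = 0.0145). Both genes lay below the receptor background on all 6 arrays, so these changes are differences within the range of background signal.

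Hoxc8 shows what a single array can do. It measured 8.83 and 8.93 at day 1 and 8.03 and 9.12 at day 4, against 9.41 and 9.27 in intact skin. Every wound array was lower, but the day 4 arrays were 1.09 apart, and neither the day 1 change of −0.46 (limma adjusted p = 0.324) nor the day 4 change of −0.77 (limma adjusted p = 0.125) passed. Without the first day 4 array the day 4 change was −0.22, and without the second it was −1.31 and passed (limma adjusted p = 0.00401). The day 1 change passed once either day 4 array was left out (limma adjusted p = 0.0159). Hoxc9 and Hoxc11 overlapped between wounds and intact skin on both days.

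Cluster D held the one rise. Hoxd10, a gene of limb and lumbar patterning, measured 7.06 and 7.17 at day 1 and 7.15 and 7.19 at day 4, against 6.7 and 6.81 in intact skin. All 4 wound arrays were higher, by 1.28-fold at day 1 (log2 0.36, SE 0.08, limma adjusted p = 0.0186) and 1.33-fold at day 4 (log2 0.42, SE 0.08, limma adjusted p = 0.0129). The call was lost at day 1 without the second day 1 array or either intact array, with an adjusted p of up to 0.112 by limma, and at day 4 without the second day 4 array or the first intact array (up to 0.0876). Its neighbour Hoxd9 measured 6.72 and 6.73 at day 1 and 6.63 and 6.79 at day 4, against 6.23 and 6.63, and did not pass (limma adjusted p = 0.163 and 0.185), except at day 1 without the second intact array (0.0404). Hoxd11, on the other side, had log2 changes of −0.20 and −0.30 (limma adjusted p = 0.168 and 0.0615), and passed at day 4 once either day 1 array was left out (limma adjusted p = 0.0497). Hoxd8 stayed within 7.48 to 7.51 on all 6 arrays, with 95% intervals of −0.16 to 0.17 at day 1 and −0.17 to 0.17 at day 4 for its log2 change.

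No member of cluster A passed on either day. The 10 log2 changes ranged from −0.29 to −0.02 at day 1 (lowest limma adjusted p = 0.132) and from −0.26 to 0 at day 4 (lowest limma adjusted p = 0.179), and 0 of 10 had an unadjusted p under 0.05 on either day. Hoxa5 measured 8.06 and 7.93 at day 1 and 7.88 and 8.08 at day 4, against 7.99 and 8.06 in intact skin. The groups overlapped, with 95% intervals of −0.26 to 0.20 at day 1 and −0.28 to 0.19 at day 4 for the log2 change. Hoxa9, the paralog of Hoxb9, measured 6.62 and 6.42 at day 1 and 6.35 and 6.74 at day 4, against 6.83 and 6.78, and had the largest shift of the cluster at day 1 (log2 −0.29, limma adjusted p = 0.182).

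Between the 2 wound days no HOX gene passed the limma test. At an unadjusted p under 0.05 there was 1, Hoxc10, with 0.39 on the log2 scale for day 4 over day 1 (limma adjusted p = 0.0521), and 2.23% of all genes were called in either direction. The median over the HOX genes was 0.02, and for cluster B the log2 differences of day 4 over day 1 lay between −0.08 and 0.13.

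The TALE homeodomain proteins are the binding partners of HOX proteins. Of 8 measured members of 9 listed, Meis1 fell and Meis2 and Pknox2 rose at day 1, and none passed at day 4. Of all genes, 29.3% were called at day 1 and 26.9% at day 4. Over the alternative fits 0 to 2 rose and 0 to 1 fell at day 1. Meis1 measured 7.49 and 7.57 at day 1 and 7.86 and 7.8 at day 4, against 7.86 and 7.91 in intact skin (day 1 log2 −0.36, limma adjusted p = 0.0142). Pknox2 measured 7.23 and 7.3 at day 1 and 6.44 and 6.76 at day 4, against 6.75 on both intact arrays, and differed between the days (day 4 over day 1, log2 −0.67, limma adjusted p = 0.0461). Meis2 measured 7.61 and 7.84 at day 1 and 7.45 and 7.84 at day 4, against 7.25 and 7.11, with a log2 change of 0.55 at day 1 (limma adjusted p = 0.0362).

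Among 17 measured Polycomb genes of 18 listed, 2 fell and 1 rose at day 1, and 1 fell at day 4. The shares of all genes called in either direction were 29.3% at day 1 and 26.9% at day 4. Cbx2, a chromatin-binding subunit of Polycomb repressive complex 1, measured 8.4 and 8.19 at day 1 and 8.59 and 8.38 at day 4, against 9.34 and 9.23 in intact skin. It fell by 1.99-fold at day 1 (log2 −0.99, limma adjusted p = 0.00134) and by 1.74-fold at day 4 (log2 −0.80, limma adjusted p = 0.00377). Its relative Cbx8 fell at day 1 (log2 −0.55, limma adjusted p = 0.0103) and Eed, a core subunit of Polycomb repressive complex 2, rose at day 1 (log2 0.33, limma adjusted p = 0.0362). Of 9 trithorax and histone demethylase genes, Men1, which encodes menin, fell on both days (log2 −0.47 with limma adjusted p = 0.00449 at day 1, and −0.39 with limma adjusted p = 0.0105 at day 4). Ash2l fell at day 1 alone (log2 −0.28, limma adjusted p = 0.0474). The other 14 Polycomb genes did not pass at day 1. Over the alternative fits 1 to 4 of the 17 Polycomb genes fell and 0 to 1 rose at day 1. For the trithorax and demethylase genes these fits gave 1 to 2 falls at day 1 and 0 to 2 at day 4.

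Of 11 measured noncoding and other genes within the clusters, of 19 listed, those with a fall were Mir196a-1 on both days and Mir10a at day 4, the 2 miRNA genes of cluster B whose sequences are given above. Mir196a-1 measured 4.63 and 4.76 at day 1 and 4.92 and 4.85 at day 4, against 5.2 and 5.19 in intact skin (log2 −0.50, limma adjusted p = 0.00495 at day 1, and −0.31, limma adjusted p = 0.0318 at day 4). Mir10a measured 3.68 and 3.78 at day 1 and 3.5 and 3.62 at day 4, against 4.09 and 3.87, with a day 4 change of −0.42 (limma adjusted p = 0.0262). These signals lay below the receptor background on every array, and whether they come from mature miRNA or from longer transcripts of the region was not tested. Over the alternative fits 0 to 2 genes of this list fell at day 1 and 0 to 3 at day 4. Lower calls made up 14.6% of all genes at day 1 and 12.1% at day 4. Mir10b, with the same seed in cluster D, did not pass on either day, and neither did Mir196a-2 or Mir196b.

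The list of genes that act on HOX transcription in the embryo, most of them in retinoic acid signalling, had 14 measured genes of 16. Of these, 2 rose and 3 fell on each day (1 to 2 and 0 to 3 over the alternative fits of both days). Calls over all genes came to 29.3% at day 1 and 26.9% at day 4. Aldh1a2, the main retinoic acid synthesising enzyme of the embryo, measured 6.25 and 5.65 at day 1 and 6.6 and 5.71 at day 4, against 7.51 and 7.59 in intact skin, and fell by 3.03-fold and 2.63-fold (limma adjusted p = 0.0102 and 0.0195). Aldh1a3, another such enzyme, measured 7.56 and 7.37 at day 1 and 8.6 and 8.32 at day 4, against 7.47 and 7.68. It rose at day 4 (log2 0.89, limma adjusted p = 0.00461) and was higher at day 4 than at day 1 (log2 1.00, limma adjusted p = 0.03). Cyp26b1, which degrades retinoic acid, rose by 2.40-fold at day 1 (limma adjusted p = 0.00209) and 1.53-fold at day 4 (limma adjusted p = 0.0326). The receptor gene Rarg fell on both days (log2 −0.55 with limma adjusted p = 0.0038 at day 1, and −0.39 with limma adjusted p = 0.0158 at day 4). Rara, another receptor gene of the list, rose at day 1 (log2 0.46, limma adjusted p = 0.027) and did not pass at day 4. Egr2 fell on both days (log2 −0.58 with limma adjusted p = 0.009, and −0.555 with limma adjusted p = 0.0126).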

How the data were processed

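An Affymetrix mouse gene array measured total RNA from 6 skin samples. The authors deposited log2 intensities, 1 per probe set and to 2 decimals, and the submitters' processing notes name RMA without a version. RMA brings arrays to a common distribution, which can hide a shift shared by most genes. The table held 35556 probe sets. A single symbol was given for 21789 of them, several for 1621 (not used), and 12146 were absent from the annotation. For 999 genes with several probe sets the brightest over all arrays was kept. The test was that of limma 3.58.1 under R 4.3.3 (lmFit on all 6 arrays, then eBayes, 3 residual and 3.4 prior degrees of freedom), two-sided, with Benjamini-Hochberg adjustment over 19938 genes and a threshold of 0.05. The 2 arrays per group limit the precision, and p-values measure the spread between these arrays. The fit was tried on simulated data with independent noise and few changed genes, which does not measure its error rates in these data. Members, lists and tests were chosen with earlier results of these data known. All members may be named, those passing any comparison or brightest in a cluster with all arrays, and from other lists up to 4 members with the smallest p per comparison. RefSeq (GRCm38.p6) gave names, gene order and sequences; the array annotation names no build. Alternatives covered normalization, prior, filters, a replicate block and single omitted arrays.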

Additional observations from a re-analysis of the deposited data

How the results depend on the processing

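Under 16 alternatives (normalization, prior, filters, probe set choice, a replicate block and single omitted arrays) no HOX change called with all arrays turned its sign. The Hoxc8 difference between the wound days, not called with all arrays, ranged from −0.85 to 0.24 (log2 −0.305 with all arrays). Leaving out single arrays gave 6 to 12 HOX calls at day 1 (11 with all arrays; 6 without intact replicate 1) and 4 to 7 cluster B falls (7 with all arrays; 4 without intact replicate 1). At day 4 it gave 3 to 13 HOX calls (12 with all arrays) and 3 to 8 cluster B falls (8 with all arrays), with 5 HOX calls without day 4 replicate 2, 3 without intact replicate 1, 4 without intact replicate 2, and 3 cluster B falls in each of these. Calls over all genes also dropped without either intact array or either array of the wound day, each of which leaves 1 array in a compared group. Leaving out a day 4 array keeps 2 arrays in both groups of the day 1 comparison. The remaining day 4 array then adds nothing to the estimate of spread, as when only the day 1 and intact arrays are fitted. That fit of the 2 groups gave 5673 calls over all genes at day 1, against 5842 with all arrays, and 12 HOX calls. Hoxb3, Hoxb4, Hoxb5, Hoxb6, Hoxc5 and Hoxc10 at day 1, and Hoxb3 and Hoxb5 at day 4, passed in every fit that included them. Hoxc13 was also lost with a robust prior on both days. The median HOX change at day 1 was −0.0784 under cyclic loess (−0.22 to −0.13 with single arrays left out, −0.16 with all). At day 4 it was −0.25 without the dimmest 30% of genes and without genes under the receptor level, which keep 26 members (−0.20 to −0.13 with single arrays left out, −0.135 with all). Cyclic loess left 9 falls at day 4, of which 7 were in cluster B. Between the days, where 0 passed with all arrays, 1 HOX gene passed with a robust prior (Hoxc10, higher at day 4) and 1 without day 4 replicate 2 (Hoxc8, lower at day 4), so single omissions gave 0 to 1, and the median ranged from −0.01 to 0.05 with single arrays left out. The count above background was 26 at the 95th percentile and 19 at the 99th percentile or the array median. First-array deviations from the group means correlated at 0.685 between the wound days, and at 0.0139 and 0.0227 with intact skin. With 2 arrays per group such a correlation cannot show that equal replicate numbers mark paired samples. Replicates were not taken as pairs. With the replicate block, 11 HOX genes were called at day 1 and 11 at day 4. Of these, 7 were cluster B falls on each day, and Hoxb1 at day 4 was lost. Between the wound days the block gave 583 calls over all genes, against 444 in the main test without it. No HOX gene passed there with the block. Dim probe sets limit what can be said of the 11 members not above background.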

Other observations

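A probe set annotated to both Hoxb8 and Hoxb7, left out of the member list because it carries 2 symbols, followed its neighbours in cluster B. It measured 6.62 and 6.28 at day 1 and 6.6 and 6.73 at day 4, against 7.38 and 7.44 in intact skin. It fell by 0.96 at day 1 (SE 0.13, limma adjusted p = 0.00761 over all probe sets) and by 0.75 at day 4 (SE 0.13, limma adjusted p = 0.0188) on the log2 scale, with no overlap between wound and intact arrays. Which of the genes gives the signal cannot be told from this probe set.

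The list of transcription factors that mark regions of skin and limb outside the HOX clusters had 23 measured genes. Of these, 7 rose and 5 fell on each day (1 to 8 and 4 to 5 over the alternative fits). Called genes were 29.3% of all genes at day 1 and 26.9% at day 4. Msx1, Msx2 and Dlx3, homeobox genes active in hair follicles, fell at day 1 by 2.31-fold, 10.6-fold and 6.17-fold (limma adjusted p = 0.000707, 0.00292 and 0.0022). Msx2 and Dlx3 are also in the hair list. Eya1 fell on both days, with the smallest p of the list at day 4 (log2 −0.56 with limma adjusted p = 0.00421, and −0.83 with limma adjusted p = 0.00133). Tbx15, a T-box gene of dorsal dermis, rose on both days, with 8.99 and 9.04 at day 1 and 8.7 and 8.93 at day 4, against 8.36 and 8.28 in intact skin (log2 0.70 with limma adjusted p = 0.00305, and 0.50 with limma adjusted p = 0.0129). Prrx1, expressed in limb and dermal mesenchyme, rose on both days. It measured 10.06 and 10.18 at day 1 and 10.49 and 10.76 at day 4, against 9.65 and 9.81 in intact skin. The log2 change was 0.39 at day 1 (limma adjusted p = 0.0477) and 0.90 at day 4 (limma adjusted p = 0.00295).

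Of 14 measured genes that flank the clusters, 2 rose and 3 fell at day 1, and 2 rose and 1 fell at day 4. Among all genes 14.7% rose and 14.6% fell at day 1, and 14.8% rose and 12.1% fell at day 4. Skap2 and Snx10, which lie beside cluster A, rose at day 1 by 2.53-fold and 2.19-fold (limma adjusted p = 0.000598 and 0.000346), while no HOX gene of that cluster passed. Calcoco1, beside cluster C, measured 9.64 and 9.47 at day 1 and 9.36 and 9.74 at day 4, against 10.54 and 10.5, and fell by 1.95-fold and 1.96-fold (limma adjusted p = 0.00308 and 0.00376).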
